A study of Mus musculus with 16 samples.

Results

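The 33 genes described here encode parts of the skeletal muscle sarcomere and of the neuromuscular junction. They were taken by gene symbol, from a list drawn up with earlier results of these data known. All 33 were found among the 55228 symbols of the count table. By role they are 6 genes of the junction and its acetylcholine receptor, 4 myosin heavy chains, 3 myosin light chains, 2 myosin binding proteins, 8 thin filament genes, 5 genes of the Z disc and titin, 3 genes of sarcomere protein turnover and 2 calcium channel subunits. Of these, 32 passed the filter on low counts and were among the 18254 genes tested. Tcap, which encodes the titin cap protein telethonin, did not pass it.

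The sarcomere is the contractile unit of striated muscle, in which thick filaments of myosin pull on thin filaments of actin that are anchored at the Z disc. Troponin and tropomyosin on the thin filament let calcium switch contraction on, and titin and nebulin span the filaments. At the neuromuscular junction, motor nerve endings release acetylcholine onto receptors that MUSK and rapsyn gather beneath the nerve. Many sarcomere proteins have several genes, used in turn by fast, slow, cardiac and developing muscle. The urethra is encircled by a striated sphincter, whereas the wall of the bladder is smooth muscle.

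RNA was sequenced from mesenchyme, the tissue outside the epithelial lining, of the bladder and the pelvic urethra of wild-type, untreated CD-1 mouse embryos at embryonic day 16.5. CD-1 is an outbred stock. Bladder and urethra were each sampled in females and in males, which gives 4 groups of 4 libraries. A library holds the pooled tissue of the embryos of 1 sex from 1 of 4 litters, so a bladder and a urethra library of the same litter and sex came from the same pool. Libraries are named here by tissue, sex and litter number. The design asks which genes mark the bladder or the urethral compartment, and it also lets the sexes be compared within each tissue.

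Bladder libraries held 18577097 to 22293812 counts and urethra libraries 24447435 to 29698009, so tissue and depth went together. The members took 0.181 to 0.236% of the counts in bladder and 0.0402 to 0.0642% in urethra. Levels are given as CPM, read counts scaled to a common library size with TMM factors. The 10 smooth muscle markers summed to 16964 to 21757 CPM in bladder libraries and 1995 to 2645 CPM in urethra libraries. Epithelial transcripts were not absent from the mesenchyme, with 13 epithelium markers at 1917 to 4824 CPM in bladder and 638 to 2234 CPM in urethra.

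The sequences just upstream of members that stood apart in the comparisons are shown first, since muscle transcription factors act on such stretches. RefSeq promoters (GRCm38.p6) were found for 24 of the 33 members, 27 in all, as Tnnt2, Tnni1 and Myh7 had 2 each. The first is printed for Tnnt2, and its second (chr1:135836739-135836988) held none of the motifs searched for. Chrnd, Rapsn, Tnni2, Tnnt3, Neb, Actn3, Tcap, Trim55 and Cacng1 were not in the table. Each run is the 250 bases before the RefSeq start site, 5′ to 3′ on the gene's own strand, and positions are counted back from that start. Chrna1, from chr2:73580339-73580588 on the minus strand, and Chrng, from chr1:87205561-87205810 on the plus strand, are receptor genes that were higher in the urethra. Mybph, from chr1:134193198-134193447 on the plus strand, and Klhl41, from chr2:69669870-69670119 on the plus strand, are sarcomere genes that were higher there. Tnnt2, from chr1:135836084-135836333 on the plus strand, and Actc1, from chr2:114052876-114053125 on the minus strand, were the members with the largest fall from bladder to urethra. Trim63, from chr4:134314870-134315119 on the plus strand, was the member called between the sexes. The runs of Chrng and Actc1 lie within the span that the count table gives these genes. Capitals mark the E-box CAGCTG, the MCAT element CATTCC, the CArG box and the MEF2 site on either strand.
Chrna1: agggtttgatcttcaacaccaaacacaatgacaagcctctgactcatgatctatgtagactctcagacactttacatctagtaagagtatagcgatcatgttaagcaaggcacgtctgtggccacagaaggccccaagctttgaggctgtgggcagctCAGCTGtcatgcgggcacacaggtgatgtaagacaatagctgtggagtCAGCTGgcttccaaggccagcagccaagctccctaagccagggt
Chrng: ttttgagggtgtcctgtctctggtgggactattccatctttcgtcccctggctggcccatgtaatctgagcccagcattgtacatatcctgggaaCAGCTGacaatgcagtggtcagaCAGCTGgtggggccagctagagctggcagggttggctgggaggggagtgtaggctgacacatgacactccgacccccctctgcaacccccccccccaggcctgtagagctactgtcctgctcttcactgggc
Mybph: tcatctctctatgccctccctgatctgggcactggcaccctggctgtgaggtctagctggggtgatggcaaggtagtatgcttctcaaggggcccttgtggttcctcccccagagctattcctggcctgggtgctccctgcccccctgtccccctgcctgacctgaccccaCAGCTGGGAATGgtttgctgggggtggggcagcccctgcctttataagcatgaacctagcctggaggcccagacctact
Klhl41: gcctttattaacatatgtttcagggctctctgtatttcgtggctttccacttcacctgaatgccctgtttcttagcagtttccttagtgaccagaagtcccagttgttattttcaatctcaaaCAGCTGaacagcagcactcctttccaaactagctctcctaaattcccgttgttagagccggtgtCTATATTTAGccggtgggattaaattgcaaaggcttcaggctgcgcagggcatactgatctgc
Tnnt2: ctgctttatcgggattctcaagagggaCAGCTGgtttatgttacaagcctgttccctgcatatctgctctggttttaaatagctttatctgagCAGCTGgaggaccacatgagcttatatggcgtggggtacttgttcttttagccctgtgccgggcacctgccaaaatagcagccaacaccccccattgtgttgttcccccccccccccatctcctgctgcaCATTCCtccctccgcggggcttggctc
Actc1: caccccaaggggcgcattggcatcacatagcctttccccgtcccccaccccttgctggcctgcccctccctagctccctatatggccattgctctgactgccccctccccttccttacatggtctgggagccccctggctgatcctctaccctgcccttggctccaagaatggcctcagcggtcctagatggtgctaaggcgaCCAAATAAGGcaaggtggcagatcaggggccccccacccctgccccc
Trim63: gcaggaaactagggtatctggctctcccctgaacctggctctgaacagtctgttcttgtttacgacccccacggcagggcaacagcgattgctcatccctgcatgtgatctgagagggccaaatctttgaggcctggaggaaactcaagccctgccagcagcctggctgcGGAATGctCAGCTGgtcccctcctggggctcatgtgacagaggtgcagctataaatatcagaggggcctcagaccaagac

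The E-box CAGCTG is bound by the myogenic regulators of the MyoD family, MCAT elements by TEAD factors, CArG boxes by serum response factor and MEF2 sites by MEF2 factors. E-box letters stood in the window of 11 of the 15 urethra-high members with a promoter and of 2 of the 9 bladder-high ones, against 13% of 32851 RefSeq promoters. A member with 2 promoters counted when either held the letters, whereas the share over all is per promoter. The printed runs show 2 E-boxes each for Chrna1, Chrng and Tnnt2, and 1 each for Mybph, Klhl41 and Trim63. MCAT letters were in 4 of the 15 and 5 of the 9, against 12.64%. A MEF2 site was found in Ttn, Myoz2 and Klhl41, against 0.5084% of all promoters, and a CArG box in Actc1 alone, with its first base 47 bases before the start, against 1.467%. The N-box CCGGAA, first described in promoters of junction genes, was in Myl1 and Myl4 (12.03% of all promoters), and the TATA box TATAAA in 4 of the 15 and 2 of the 9 (12.37%). Both strands were searched, the N-box of Myl1 shares bases with an MCAT element there, and a MEF2 site can hold the letters of a TATA box. A match describes these letters and is not shown to be a bound site.

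Between the tissues the members divided into 21 that were higher in the urethra and 11 that were lower, so all 32 tested members passed the test. The test was edgeR's quasi-likelihood test with Benjamini-Hochberg adjustment over all tested genes and a threshold of 0.05, on the mean of both sexes. In the same comparison 75.0% of all tested genes were called, 36.5% higher and 38.5% lower, so a call alone did not set the members apart. The members' median log2 fold change was 3.15 against -0.03 over all tested genes, and the median of its absolute value was 3.48 against 0.42. At least 2-fold higher and called were 18 members, against 12.6% of all genes, and at least 2-fold lower and called were 7, against 9.41%. In 25 members the 8 bladder and 8 urethra libraries did not overlap, which held for 42.3% of all genes. The map of member levels by library shows the split by role. In bulk tissue, fewer cells of a type and less RNA per cell cannot be told apart.

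**Figure D1:**
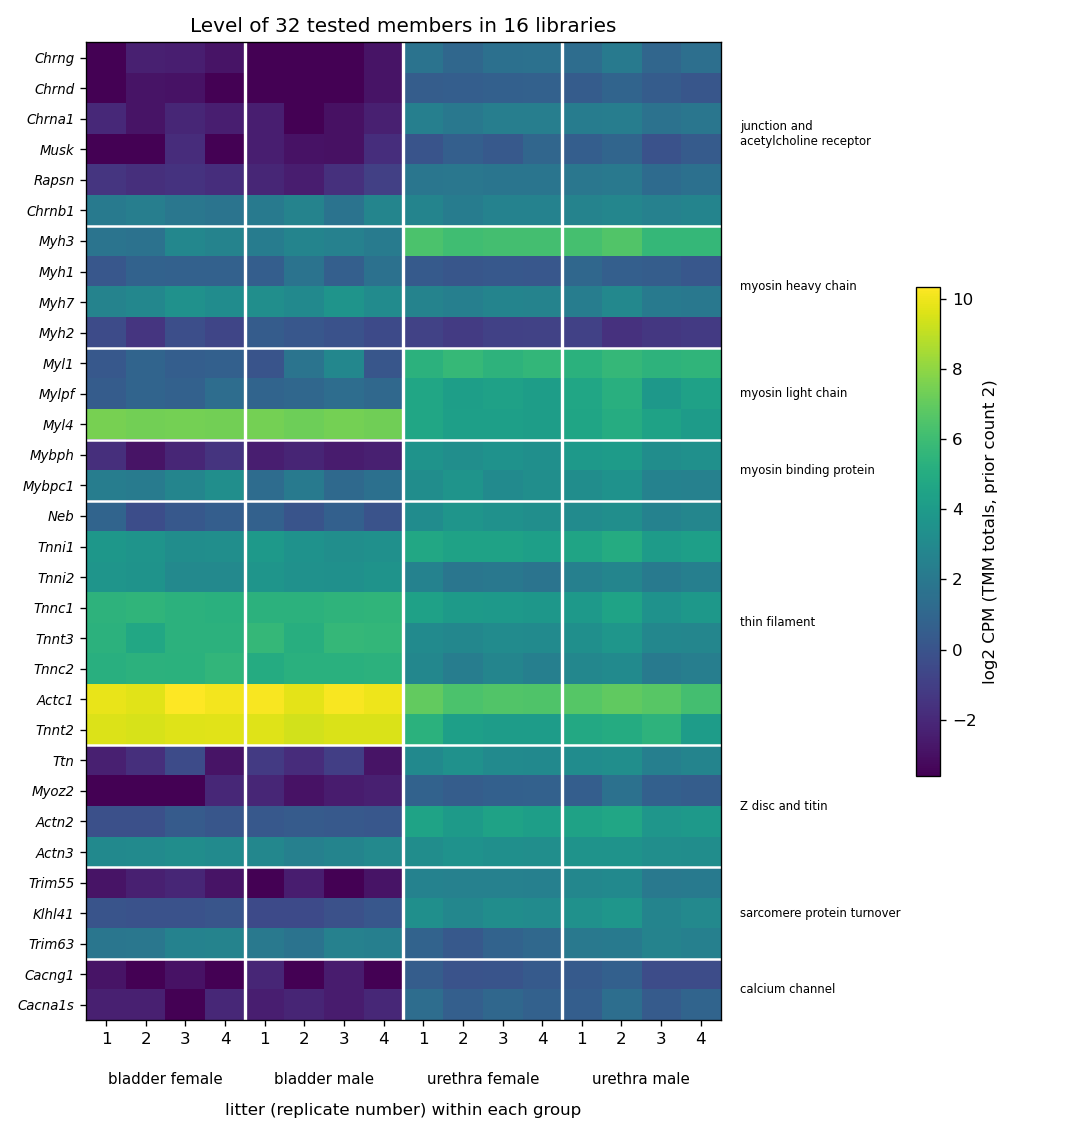
Level of the 32 tested members (rows, grouped by role) in the 16 libraries (columns, by group and litter) as log2 CPM with a prior count of 2, from dark (low) to yellow (high). The 5 receptor and junction genes other than Chrnb1 are dark in every bladder library, and Actc1, Tnnt2 and Myl4 are brightest in bladder.

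All 6 junction genes were higher in the urethra, and 5 of them without overlap. Chrna1, the alpha subunit that binds acetylcholine, lay between 0 and 0.168 CPM in bladder (median 0.103) and between 3.13 and 5.34 CPM in urethra (median 4.80), a log2 fold change of 5.59 ± 0.23 (SE). Chrng, the gamma subunit of the fetal receptor, had 6 counts over all 8 bladder libraries, at most 0.114 CPM, and 1.93 to 4.16 CPM in urethra (median 2.82). Chrnd, the delta subunit, had 3 counts over the 8 bladder libraries and 324 over the 8 urethra libraries, where it ran from 1.00 to 1.78 CPM (median 1.37). Both genes were thus at or near 0 in every bladder library, where 3 counts equal 0.139 to 0.170 CPM. The ratio of the scaled Chrnd sums was 72.3, with a 95% interval of 24.5 to 352 that covers counting error only. Without bladder male 4, where each of Chrnd and Chrng had 1 count, the fitted log2 fold changes went from 5.88 to 6.78 and from 6.30 to 7.19.

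Musk encodes the receptor kinase that agrin activates to build the junction. It lay between 0 and 0.215 CPM in bladder (median 0.0475) and between 0.878 and 1.92 CPM in urethra (median 1.33), a log2 fold change of 4.12 ± 0.40, or 5.91 without bladder female 3, which held 4 of its 12 bladder counts. Rapsn, the scaffold that clusters receptors, ran from 0.0973 to 0.430 CPM in bladder and from 2.35 to 4.05 CPM in urethra (3.84 ± 0.19). Chrnb1, the beta subunit, was the junction gene with the smallest difference. It ran from 3.15 to 6.66 CPM in bladder (median 4.15) and from 4.73 to 6.85 CPM in urethra (median 6.10), with overlap, and its log2 fold change of 0.40 ± 0.14 had an adjusted p of 0.0154. Per kb of exon, Chrnb1 stood at 1.81 CPM in bladder, where Chrna1 stood at 0.0210, so the receptor subunits were far from even there. In urethra the same means were 2.37 CPM per kb for Chrnb1, 1.01 for Chrna1, 0.673 for Chrng and 0.426 for Chrnd. Chrne, the subunit that replaces gamma in the adult receptor and not a member, went from 0.430 CPM per kb in bladder to 0.209 in urethra. Chrng was above Chrne in 8 of 8 urethra libraries and in 0 of 8 bladder libraries.

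The myosin heavy chains went in both directions, with 1 higher and 3 lower. Myh3, the embryonic heavy chain, lay between 3.13 and 7.14 CPM in bladder (median 5.16) and between 51.4 and 95.1 CPM in urethra (median 71.6), a log2 fold change of 3.78 ± 0.18. It was the heavy chain whose libraries did not overlap between the tissues. Myh7, the slow and cardiac beta heavy chain, ran from 6.10 to 12 CPM in bladder and from 3.87 to 7.48 CPM in urethra (-0.70 ± 0.14). Myh2 and Myh1, the adult fast chains of types 2A and 2X, were at low level throughout. Myh2 ran from 0.284 to 1.30 CPM in bladder and from 0.245 to 0.477 CPM in urethra (-0.92 ± 0.21). Myh1 ran from 1.06 to 3.26 CPM and from 1.00 to 2.03 CPM (-0.52 ± 0.20, adjusted p = 0.0238). The call for Myh1 was lost with litter and sex as a replicate block (adjusted p = 0.0536) and without bladder female 2, 3 or 4 or bladder male 2 or 4 (0.0535 to 0.0635).

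On chromosome 11 these fast and embryonic chains lie in 1 cluster. Myh3 (chr11:67078300-67102291, plus strand) ends 68735 bases before Myh2 (chr11:67171027-67197517), and Myh2 ends 2534 bases before Myh1 (chr11:67200052-67224575). Myh2 and Myh1, which are adjacent, both fell, and Myh3, with 1 gene between it and Myh2, rose. Myh8, the perinatal chain, and Myh4, the fast 2B chain, are not members and were also lower in the urethra (log2 fold changes of -1.20 ± 0.12 and -2.57 ± 0.22). Reads that map to more than 1 place were not counted, and the heavy chains of this cluster are similar in sequence, so low values of Myh1 and Myh2 are uncertain.

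Of the light chains, Myl1 and Mylpf were higher and Myl4 lower. Myl1, the fast alkali light chain, lay between 39.9 and 52.7 CPM in urethra (median 43.9). In bladder its median was 1.48 CPM, with 0.953 to 3.36 CPM in all libraries but bladder male 3, at 7.18 CPM. That library also had the highest sum of 10 neuron markers in bladder, 385 CPM against 41.4 to 169 CPM in the others, and their part in its Myl1 level was not tested. The log2 fold change of Myl1 was 4.40 ± 0.29. Mylpf, the fast regulatory light chain, ran from 1.29 to 2.55 CPM in bladder and from 14.4 to 36.8 CPM in urethra (3.53 ± 0.19). Myl4, the embryonic and atrial alkali light chain, was highest in bladder, with 152 to 178 CPM (median 169) against 16.6 to 32.4 CPM (median 20.3), a log2 fold change of -2.94 ± 0.11.

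Both myosin binding proteins were higher in the urethra. Mybph, myosin binding protein H, went from 0.0568 to 0.265 CPM in bladder up to 9.27 to 16.5 CPM in urethra (medians 0.127 and 11). Mybpc1, the slow skeletal form of myosin binding protein C, overlapped between the tissues, at 2.18 to 9.82 CPM in bladder (median 4.36) and 5.80 to 12 CPM in urethra (median 9.35), with a log2 fold change of 1.05 ± 0.19. Within females the tissues overlapped, and within males they did not.

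Thin filament genes fell in the urethra in 6 of 8 cases, and none of the 8 overlapped between the tissues. Actc1, the actin of the heart and of developing skeletal muscle, was the most abundant member, at 850.3 to 1296 CPM in bladder (median 1049.5) and 73.4 to 127 CPM in urethra (median 96.4), a log2 fold change of -3.40 ± 0.13. It made up 48.1% of all member CPM in bladder and 21.5% in urethra. Tnnt2, the troponin T of heart and early skeletal muscle, showed the largest fall of the members, from 670.1 to 839.7 CPM in bladder (median 768) to 17 to 41.9 CPM in urethra (median 23.6), or -4.86 ± 0.21. Together with Myl4 at 7.72%, Actc1 and Tnnt2 (35.3%) thus held most of the member signal in bladder. Actc1 shares long stretches with the other actin genes, and reads that fit several of them were not counted.

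The calcium-binding troponin C genes and 2 further troponin genes also fell. Tnnc1, slow and cardiac troponin C, ran from 37.5 to 46.5 CPM in bladder and from 11.3 to 22.1 CPM in urethra (-1.41 ± 0.11). Tnnc2, fast troponin C, ran from 31.7 to 46.9 CPM and from 4.42 to 8.39 CPM (-2.66 ± 0.12). Tnnt3, fast troponin T, ran from 26.8 to 52.0 CPM and from 6.94 to 13 CPM (-2.27 ± 0.14). These differences were several times their standard errors, and the lower tissue was the urethra in 8 of 8 pairs of the same litter and sex for each gene. Tnni2, fast troponin I, ran from 7.75 to 12.8 CPM in bladder and from 3.27 to 6.64 CPM in urethra (-1.17 ± 0.14). Tnni1, slow troponin I, went the other way, from 9.47 to 15.3 CPM in bladder to 16.6 to 31.9 CPM in urethra (0.98 ± 0.14). Neb, the giant ruler protein of the thin filament, rose from 0.739 to 1.79 CPM to 5.97 to 12.7 CPM (2.87 ± 0.17).

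On chromosome 1, Tnni1 (chr1:135779434-135810989) and Tnnt2 (chr1:135836354-135852260) lie 25364 bases apart on the plus strand and moved in opposite directions. The troponin pair Tnni2 (chr7:142441808-142444410) and Tnnt3 (chr7:142498836-142516009), 54425 bases apart, both fell. The receptor pair Chrnd (chr1:87190607-87200070) and Chrng (chr1:87204657-87212694), 4586 bases apart on the plus strand, both rose.

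All 4 tested genes of the Z disc and titin were higher in the urethra. Actn2, the alpha-actinin of all striated fibres, went from 0.783 to 1.27 CPM in bladder to 13.1 to 24.8 CPM in urethra (4.17 ± 0.16). Ttn, the giant spring of the sarcomere, went from 0.0531 to 0.658 CPM to 5.27 to 10.9 CPM (4.93 ± 0.28). Myoz2, a calcineurin-binding Z disc protein, lay between 0 and 0.159 CPM in bladder and between 1.32 and 2.97 CPM in urethra (4.59 ± 0.37, or 6.19 without bladder female 4, which held 3 of its 11 bladder counts). For these genes the bladder libraries stayed far below the lowest urethra library. Actn3, the alpha-actinin of fast fibres, differed least, at 5.55 to 9.37 CPM in bladder (median 7.87) and 9.34 to 12 CPM in urethra (median 9.96), which overlapped by a narrow margin (0.46 ± 0.08). Tcap had 0 to 4 counts in bladder libraries and 7 to 15 in urethra libraries. Fitted without the filter, its log2 fold change was 1.49 ± 0.37 with an adjusted p of 0.00116.

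Of the turnover genes, Trim55 and Klhl41 rose and Trim63 was lower on the mean of the sexes. Trim55, a muscle RING finger protein of the M band, lay between 0 and 0.152 CPM in bladder and between 4.04 and 7.97 CPM in urethra (median 5.63). Klhl41, a kelch protein that protects nebulin, went from 0.633 to 1.07 CPM to 6.32 to 13.2 CPM (3.44 ± 0.17). Trim63, the ubiquitin ligase MuRF1 that marks sarcomere proteins for breakdown, ran from 3.26 to 6.10 CPM in bladder and from 1.16 to 6.08 CPM in urethra, with wide overlap (-0.70 ± 0.16). Its low urethra values were the female ones, as described below.

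Both calcium channel genes were near 0 in bladder. Cacna1s, the voltage sensor of excitation-contraction coupling, lay between 0 and 0.161 CPM in bladder and between 1.23 and 2.59 CPM in urethra (4.00 ± 0.30). Cacng1, its gamma subunit, lay between 0 and 0.151 CPM and between 0.691 and 1.5 CPM (4.51 ± 0.42). Neither gene's libraries overlapped between the tissues. Summed over the 21 urethra-high members, the level was 39.6 to 45.8 CPM in bladder and 203 to 352 CPM in urethra. The 11 bladder-high members summed to 1844 to 2438 CPM in bladder and 150 to 252 CPM in urethra.

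Several pairs of related genes changed rank between the tissues, compared here as mean CPM per kb of exon over 8 libraries each. Among troponin I genes, Tnni1 stood at 3.19 ± 0.582 (SD) against 7.16 ± 1.31 for Tnni2 in bladder, and at 6.29 ± 1.37 against 3.19 ± 0.810 in urethra. Per kb, Tnni1 was the lower of the pair in all 8 bladder libraries and the higher in all 8 urethra libraries. In CPM, without the length, Tnni1 was the lower in bladder male 3 (9.82 and 10.5) and bladder male 4 (10.3 and 11.7) alone. Among troponin T genes, Tnnt2 led Tnnt3 in bladder by 99.0 ± 7.14 to 26.8 ± 5.58, and in urethra it was below Tnnt3, 3.43 ± 1.35 to 5.51 ± 1.27, in all libraries but 1. Troponin C changed rank as well, with Tnnc1 at 40.8 ± 2.90 and Tnnc2 at 48.7 ± 5.52 in bladder, and 15.3 ± 3.44 and 7.66 ± 1.75 in urethra.

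The light chain Myl4 stood at 36.1 ± 1.77 and Myl1 at 1.11 ± 1.02 CPM per kb in bladder, and at 4.73 ± 1.10 and 22 ± 2.52 in urethra. Actn2 was below Actn3 in bladder (0.278 ± 0.0493 and 2.62 ± 0.412) and above it in urethra (5.03 ± 1.11 and 3.57 ± 0.362), in 8 of 8 libraries each. Myh3 was below Myh7 in 7 of 8 bladder libraries and above it in all 8 urethra libraries, with means of 0.847 ± 0.239 and 1.04 ± 0.222 in bladder and 11.7 ± 2.41 and 0.642 ± 0.141 in urethra. Per kb, Tnni1, Tnnt3, Tnnc1, Myl1, Actn2 and Myh3 led their pairs in urethra, and in bladder their partners did. The panels of related pairs show these levels. Other pairs kept their order of means. The mean of Mybpc1 was above that of Mybpc2, the fast form and not a member, in both tissues (1.03 and 0.747 in bladder, 1.99 and 0.149 in urethra). By library, Mybpc1 was the higher in 6 of 8 in bladder and in 8 of 8 in urethra. The mean of Myh1 was above that of Myh2 (0.295 and 0.108 in bladder, 0.202 and 0.0548 in urethra). Exon length here is that of all annotated exons merged, so a level per kb is low for a gene with long exons that most transcripts lack. The length cancels in each gene's own change between the tissues.

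**Figure D2:**
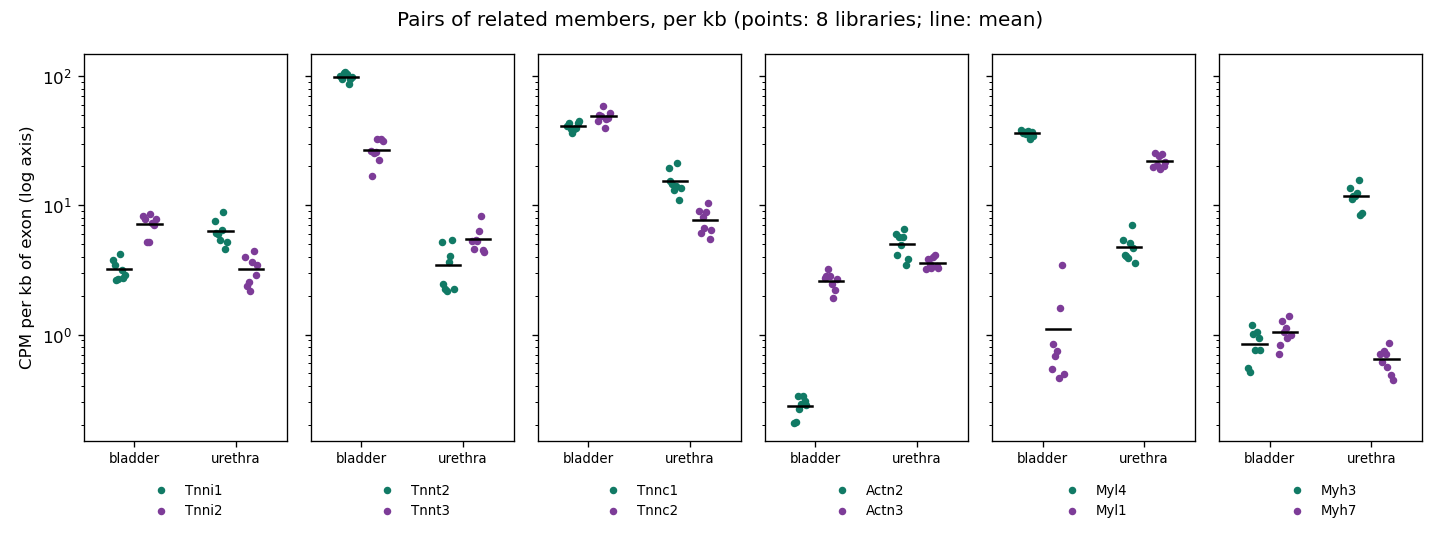
Pairs of related members as CPM per kb of exon on a log axis, with 8 bladder and 8 urethra libraries per gene as points and their mean as a line. Each of the 6 pairs changes its order of means per kb between bladder and urethra. Tnni1, for example, goes from 3.19 to 6.29 and Tnni2 from 7.16 to 3.19. In CPM, without the length, the means of the troponin pairs keep their order.

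Markers of other cell types moved with both sets of members. Of 9 skeletal muscle lineage markers 8 were tested, and all 8 were higher in the urethra without overlap. Their sum was 1.56 to 3.76 CPM in bladder and 52.0 to 94.5 CPM in urethra. The satellite cell gene Pax7 was at 0 in 5 of 8 bladder libraries, and Pax3 in all but 1. All 10 neuron markers (41.4 to 385 CPM in bladder, 1403 to 2297 CPM in urethra) and all 7 glia markers (51.3 to 97.3 and 136 to 175 CPM) were also higher there. All 10 smooth muscle markers were lower in the urethra, as the bladder-high members were. Of 9 heart muscle markers, 6 were tested, of which 4 were lower in the urethra, among them atrial Myl7 (-4.94 ± 0.19) and Nppa (-5.59 ± 0.38), and Sln was higher (4.47 ± 0.41). The heart list summed to 28.5 to 51.6 CPM in bladder and 20.7 to 34.8 CPM in urethra, and the heart transcription factor gene Nkx2-5 had 0 to 2 counts per library. The part of these cell types in the members' levels was not tested.

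Other genes of the same machinery were also called in both directions, beside 36.5% higher and 38.5% lower over all tested genes. Of 38 other sarcomere genes 32 were tested, and 11 were higher, 17 lower and 4 not called in the urethra, with a median log2 fold change of -0.42. The highest were Myot (4.26 ± 0.33) and Trim54 (3.45 ± 0.55), which encode myotilin of the Z disc and a further muscle RING finger protein. The lowest were Acta1, skeletal actin (-5.19 ± 0.26), and Myl7. Of 22 other junction genes, 11 were higher, 7 lower and 4 not called, with a median of 0.13. Among the higher ones were Ache, the acetylcholinesterase that ends each signal (4.33 ± 0.33), its anchor Colq (2.96 ± 0.22) and Dok7, the adaptor that activates MUSK (2.59 ± 0.17), and among the lower ones were Lama5 (-1.14 ± 0.11) and Chrne (-1.02 ± 0.27). Ache and Colq are also made by neurons.

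Genes of excitation-contraction coupling beyond the 2 channel subunits were called in both directions, 8 higher and 8 lower of 17, with a median of 0.16. Atp2a1, the calcium pump of fast fibres (3.81 ± 0.19), and Ryr1, the calcium release channel of skeletal muscle (2.49 ± 0.13), were higher. Sln, given above with the heart markers, is also on this list and among the 8 higher genes. Trdn (triadin, -3.69 ± 0.19), Jph2 (junctophilin 2, -3.03 ± 0.10) and Casq2 (cardiac calsequestrin, -2.03 ± 0.14) were lower.

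Within each sex the tissue difference of most members was called again. In females 29 of 32 members passed, 20 higher and 9 lower, against 65.7% of all genes (32.6% higher, 33.1% lower). In males 30 passed, 20 higher and 10 lower, against 64.0% (31.4% and 32.6%). Not called in females were Myh1, Myh2 (-0.35, 95% interval -0.94 to 0.24) and Actn3 (0.24, 0.02 to 0.47). Not called in males were Chrnb1 (0.31, -0.07 to 0.69) and Trim63 (0.13, -0.30 to 0.56). A missed call does not show that the tissues were alike for these genes. The change from females to males was not called for Myh2 (-0.35 and -1.50, interaction -1.15 ± 0.41, adjusted p = 0.356).

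Calls close to the threshold did not hold throughout. With litter as a replicate block the adjusted p went from 0.0498 to 0.0617 for Myh7 in females, from 0.0494 to 0.0542 for Mybpc1 in females and from 0.0478 to 0.0659 for Myh1 in males. Of the settings that left out 1 library, Myh7 in females kept its call without bladder female 1 or urethra male 2 or 4 and lost it without any of the others (adjusted p 0.0522 to 0.238). Myh1 in males kept its call without bladder male 1 or 3 or urethra male 1 and lost it otherwise (0.0541 to 0.213). Mybpc1 in females lost its call without bladder female 1, 2 or 3, bladder male 4, urethra female 1, 2 or 4 or urethra male 1 (0.0549 to 0.13). Chrnb1 in females (0.0402) lost its call without bladder female 1, 3 or 4 or urethra female 1, 3 or 4 (0.0581 to 0.0957). Actn3 in females gained a call without bladder female 3 (0.0286), and Chrnb1 in males without bladder male 4 (0.0488). The plot of tissue differences by sex sets the values of both sexes side by side.

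**Figure D3:**
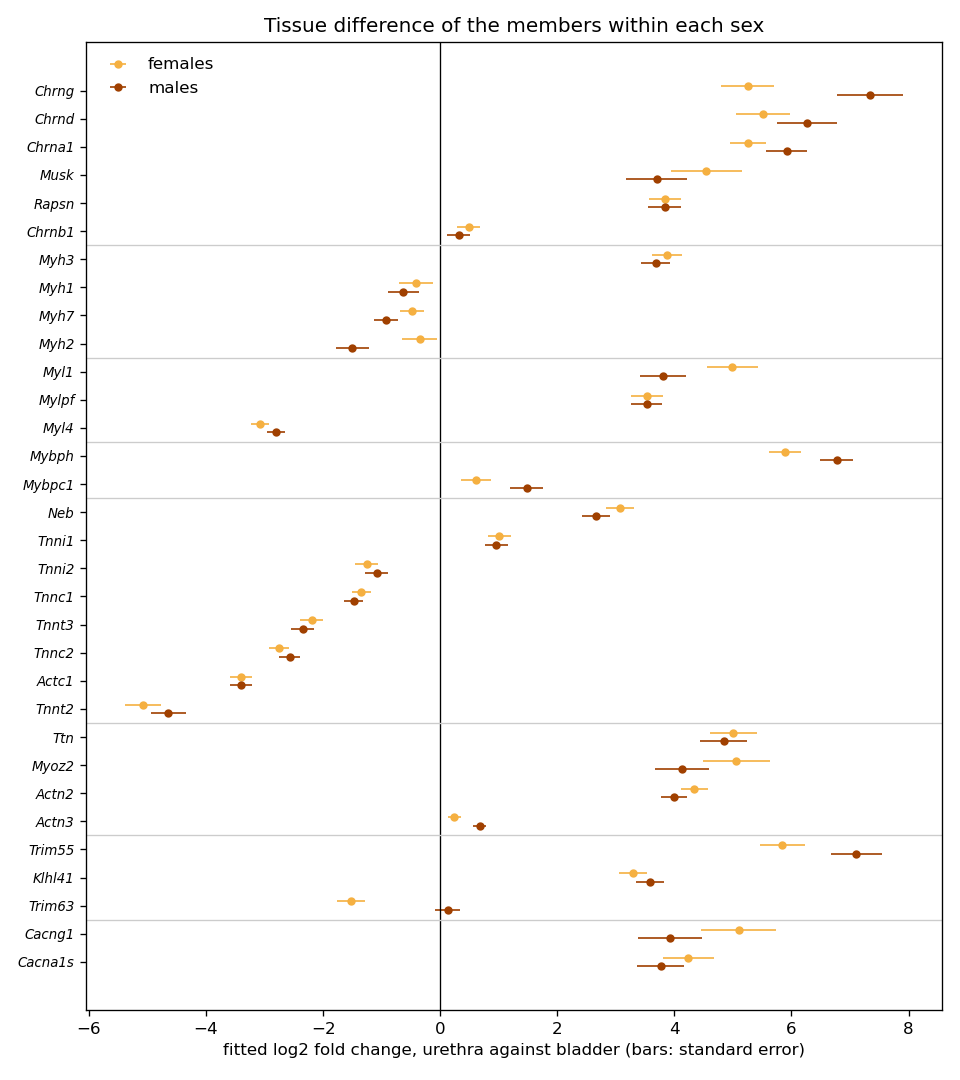
Fitted log2 fold change of urethra against bladder for each of the 32 tested members, in females and in males, with bars for the standard error. The sexes lie close together for most members, and Trim63 is at -1.52 in females and 0.13 in males. Members with 1 to 3 counts in a bladder group (Chrnd, Chrng, Myoz2, Trim55 and Cacng1) depend there on the prior count of the fit. That is edgeR's default and not the 2 used for log2 CPM.

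Between the sexes 1 member was called in the urethra, Trim63, against 6.39% of all tested genes. It stood at 1.68, 1.16, 1.74 and 2.06 CPM in urethra females of litters 1 to 4, and at 4.10, 4.33, 6.08 and 5.56 CPM in urethra males. Every male library was above every female one, with a log2 fold change of 1.58 ± 0.23 for males against females (edgeR quasi-likelihood test, Benjamini-Hochberg adjusted p = 0.000382). In bladder the females had 3.52, 3.69, 5.82 and 6.10 CPM and the males 4.06, 3.26, 5.79 and 5.26 CPM. Those 2 groups overlapped almost fully (-0.06 ± 0.23), and the urethra females were thus the 1 group of 4 that stood low. The interaction of tissue and sex was 1.65 ± 0.32 with an adjusted p of 0.0241, and Trim63 was the 1 member called there, against 0.668% of all genes.

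The call between the sexes in urethra remained in each of the 22 alternatives, whereas the interaction was lost without bladder female 4 (adjusted p = 0.0627), bladder male 1 (0.0513), urethra female 2 (0.0513) or 3 (0.0508), or urethra male 3 (0.0538) or 4 (0.0579). Epithelium markers summed to 638 to 1848 CPM in urethra females and 1664 to 2234 CPM in urethra males, with 4 of 13 not overlapping, against 13.4% of all tested genes. Of the 13, edgeR called 0 and DESeq2 called 2, against 8.58% of all genes in DESeq2. In edgeR 5 had an unadjusted p under 0.05, and the share of all genes at that level was not counted. The part of these markers in the Trim63 difference was not tested. Urethra females 3 and 4 had the lowest epithelium sums of the urethra females. With both left out, the interaction was 1.86 with an adjusted p of 0.0637. That fit held fewer libraries and is not a test of the part of the epithelium.

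**Figure D4:**
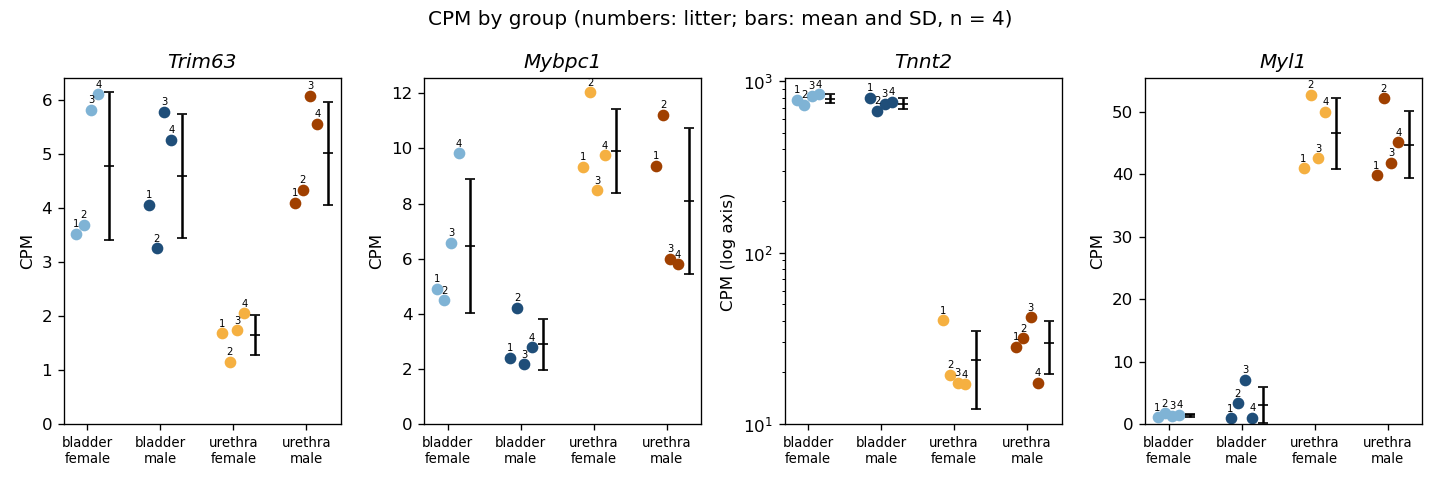
CPM of Trim63, Mybpc1, Tnnt2 (log axis) and Myl1 in the 4 groups, each point a library labelled with its litter, with bars for mean and SD (n = 4). Trim63 is low in urethra females alone (1.16 to 2.06 CPM), Tnnt2 is high in urethra female 1 and urethra male 3, and Myl1 is high among bladder libraries in bladder male 3.

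The other 31 tested members were not called between the sexes in urethra. Their log2 fold changes ran from -0.42 ± 0.19 for Neb to 0.41 ± 0.28 for Myh1. Neb (unadjusted p = 0.0452, adjusted p = 0.249 by edgeR's quasi-likelihood test) overlapped between the sexes. Tnnt2 stood at 40.2, 19.2, 17.4 and 17 CPM in urethra females and 28.0, 31.5, 41.9 and 17.3 CPM in urethra males (0.34 ± 0.27, adjusted p = 0.542). Urethra female 1 was the high female library, and without it the difference was 0.73 with an adjusted p of 0.0349.

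In bladder 0 of 32 members were called between the sexes by edgeR's quasi-likelihood test, against 0.581% of all genes. At an unadjusted p under 0.05 there were 5 members, and the share of all genes at that level was not counted. DESeq2 called 1 member, against 2.59% of all genes in DESeq2. That member was Mybpc1, at 4.92, 4.49, 6.58 and 9.82 CPM in bladder females and 2.41, 4.23, 2.18 and 2.79 CPM in bladder males. All female libraries lay above all male ones, with a log2 fold change of -1.15 ± 0.29 and an adjusted p of 0.0782 in edgeR against 0.0047 in DESeq2. Of 13 epithelium markers, edgeR and DESeq2 each called 0 between these groups, with 4 at an unadjusted p under 0.05 in edgeR. Epithelium markers summed to 1917 to 3909 CPM in bladder females and 4023 to 4824 CPM in bladder males, with 7 of 13 not overlapping, all higher in males. Bladder females 3 and 4, where Mybpc1 was highest, had the lowest of these sums (1917 and 2509 CPM), and the part of these markers in the Mybpc1 difference was not tested. Actn3 was the other member without overlap, at 8.46 ± 0.624 CPM in females and 6.72 ± 0.972 CPM in males (SD, n = 4; -0.33 ± 0.12, adjusted p = 0.244). The remaining members overlapped between the sexes in bladder, where ranges without overlap were seen in 6.62% of all genes.

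The urethra libraries also differed among themselves in a way that many members shared. Among the 21 urethra-high members, urethra male 2 was the highest library for 15 and urethra male 3 the lowest for 14. Relative to each member's median over the urethra libraries, the median ratio was 1.33 in urethra male 2, 0.694 in urethra male 3 and between 0.864 and 1.07 in the others. The sum of lineage markers was likewise highest in urethra male 2, at 94.5 CPM, and lowest in urethra male 3, at 52.0 CPM. The 11 bladder-high members followed this only in part, as urethra male 2 was highest for 6 and urethra male 4 lowest for 4. Their median ratio was also the highest in urethra male 2, at 1.39. In urethra male 3 the median ratio was 0.910, although Tnnt2 was at its highest and Acta1, which is not a member, was also at its urethra maximum of 66.9 CPM. The litter of urethra male 2 and that of urethra male 3 did not show the same order in females, where the urethra-high sums were 266 and 268 CPM.

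**Figure D5:**
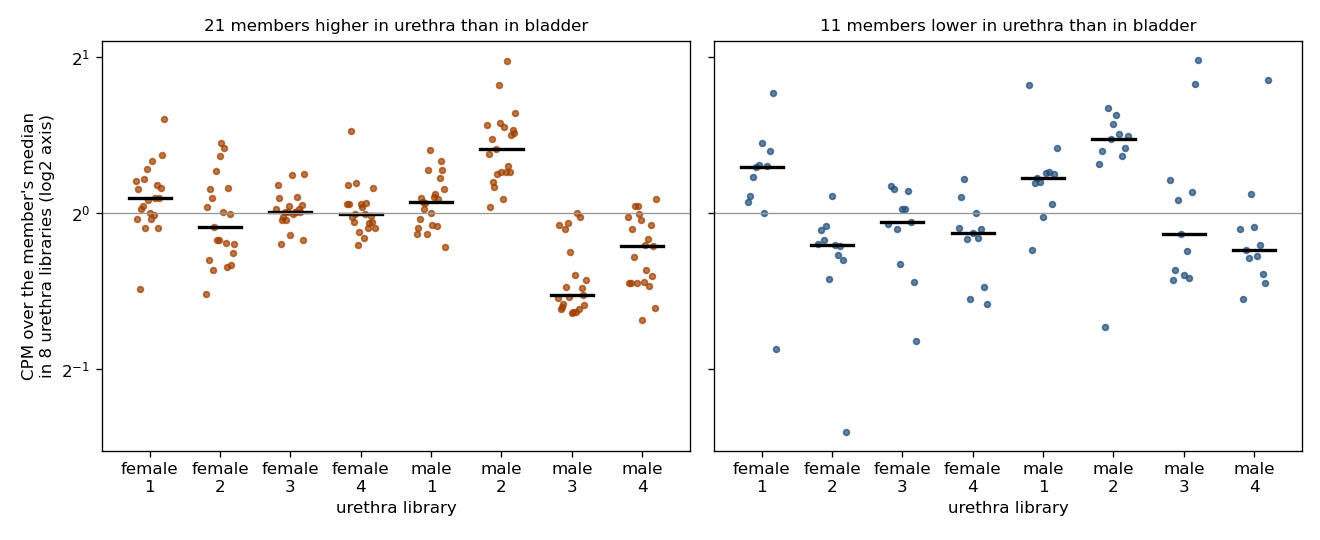
CPM of each member divided by its median over the 8 urethra libraries (log2 axis), for the 21 urethra-high members on the left and the 11 bladder-high members on the right, with a line at the median of each library. On the left urethra male 2 lies highest (1.33) and urethra male 3 lowest (0.694), and the right panel shows a wider scatter.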

How the data were processed

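Poly(A) RNA of 16 libraries (4 groups of 4) was read as 100-base pairs. Per the submitters' processing notes, the authors aligned reads to GRCm38 with HISAT2 2.1.0 and counted them with Subread 1.6.3. The deposited table gives raw counts per gene symbol, per the file headers made with strand setting 2, without multimapping reads or reads on more than 1 gene. Which GENCODE release was used is not stated. The second deposited table, of normalized counts, was not used.

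Counts were tested here with edgeR 4.0.16 (quasi-likelihood, TMM, filterByExpr, robust) in R 4.3.3, in 1 fit of the 4 groups. Adjusted p are Benjamini-Hochberg values over 18254 genes, threshold 0.05. The SE was approximated from the F statistic (absolute log2 fold change over root F). Intervals are 95%, at 1.96 SE. Log2 CPM used a prior count of 2. Exon lengths came from the count table. DESeq2 1.42.0 was an alternative, with other scalings, no filter, replicate blocks and libraries left out. On simulated data the fit recovered 87.9% of 2-fold and 99.0% of 4-fold tissue changes in 17924 genes, with 7 false among 190 calls. The simulation changed 99 genes by 2-fold and 97 by 4-fold, without litter pairs. In the real comparison 75.0% of genes were called, so these shares do not carry over to it.

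Every member could be named. Of other lists, the most changed called genes were named. The members and lists were chosen with earlier results of these data known. The labels give each library's litter, which pairs bladder with urethra. Deviations of such pairs from their group means correlated at 0.0921 to 0.409 (median 0.194, 7 of 8 over 0.1). The median for other litters was -0.0646. Centring each group on its mean ties that value to the same-litter ones, so it is not an independent baseline. No 2 libraries of a group agreed within sampling noise (24 pairs, chi-squared per degree of freedom at least 4.71).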

Additional observations from a re-analysis of the deposited data

Results flagged for a closer look

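In groups of 4 libraries, 11 of 128 member levels had 1 library far from the other 3, where chance gives about 1 in 20 groups. Values are log2 CPM with a prior count of 2. In bladder male 4, Chrnd and Chrng both stood at -2.87, which is 1 count against 0 in the other male bladder libraries. Musk stood at -1.81 in bladder female 3 (4 counts against 0) and Myoz2 at -2.05 in bladder female 4 (3 counts against 0). These 4 cases rest on a handful of counts.

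Tnnt3 was low in every litter 2 library but urethra male 2, with 4.75 in bladder female 2 (26.8 CPM against 40.6 to 41.5 in the others), 5.14 in bladder male 2 (35.2 against 50.2 to 52.0) and 2.88 in urethra female 2 (7.30 against 8.40 to 8.55). Urethra male 2 was instead the highest urethra library for Tnnt3, at 13 CPM. Myh1 was low in bladder female 1 at 0.20 (1.06 CPM against 1.57 to 1.65).

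In urethra, Tnnt2 was high in female 1 at 5.33 (40.2 CPM against 17 to 19.2), Ttn in female 2 at 3.46 (10.9 CPM against 8.10 to 8.23) and Myoz2 in male 2 at 1.61 (2.97 CPM against 1.35 to 1.51). The effect of sex on Trim63 differed between the tissues by 1.65 on the log2 scale, by the interaction term of the fit.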

How the results depend on the processing

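None of the 23 alternatives reversed the tissue direction of a tested member. The number of members called between tissues was 31 to 33 over all alternatives, 31 to 32 without single libraries, and 26 to 29 in females and 29 to 30 in males. With litter as the replicate block 32 members were called between tissues, and with litter and sex as the replicate block 31, the call for Myh1 being lost. Beside the near-threshold calls given above (Myh7, Mybpc1 and Myh1 within a sex), the blocks changed no member's call. Library totals without TMM factors shifted the median of all genes by 0.14 toward the urethra and raised the share of higher calls between tissues from 48.7 to 60.8% (in females 49.6 to 61.1%, in males 49.0 to 63.3%). In bladder sex calls that share went from 42.5 to 53.3%, and to 63.8% without the filter. Myh1 lost its tissue call on library totals (adjusted p = 0.0838) and with urethra females 3 and 4 left out together (0.0642).

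Counts of all genes between the sexes moved more. In urethra 1167 genes were called, 674 to 1691 without single libraries and 370 without urethra females 3 and 4 together, with 1 to 2 members called. In bladder 106 were called, 40 to 174 without single libraries and 473 by DESeq2, which called 1 member. For the interaction 122 were called, 70 to 147 without single libraries, 274 by DESeq2 and 56 without urethra females 3 and 4 together, with 0 to 1 members without single libraries and 0 without those 2 libraries. The cause of these shifts was not tested. Chrnd, Chrng, Musk, Myoz2, Trim55 and Cacng1 had few counts in bladder, so single libraries moved their fold changes, as given above for the first 4.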
